A study of Mus musculus with 4 samples.

Results

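The subject is a set of X-linked genes: Gpkow, Fundc1, Klhl13, Nkap, Mmgt1, Tmem47, Igbp1, Psmd10 and Gemin8, 9 of the 25965 entries of the count table and of its 1091 X-linked entries. They were selected by name because their counts from the inactive X differed between Smchd1-deleted and control cells in these same libraries. Their Cast counts are therefore given as a description, with no test, and nothing is supported by their direction. The cells were female mouse neural stem cells, cultured progenitors that can give rise to neurons and glia. The deleted cells were Smchd1 del/del, and the controls were Smchd1 del/fl, with 1 deleted and 1 conditional allele. Both genotypes carried Xist 129-KO/Xist WT-Cast on a mixed C57BL/6, 129 and Castaneus background: the maternal X was 129 with the Xist deltaA allele, and the paternal X was Castaneus (Cast). All lines began as del/fl cultures from E14.5 embryos (E, embryonic day). Part of every culture received the retrovirus MSCV-Cre-puro, met puromycin from 24 h on and was collected 7 days after transduction, and the other part stayed untransduced. Effects of the deletion cannot be told apart from those of transduction and selection, and the controls already lacked 1 Smchd1 allele. There were 2 libraries per genotype, and the column names give both genotypes the same pair of numbers, here called A and B. Values are given in the order A, B within a genotype.

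In female cells 1 of the 2 X chromosomes is silenced by the long RNA Xist, which coats the chromosome it is made from. Smchd1 is a chromatin protein of the SMC family that is recruited to the inactive X and takes part in keeping many of its genes silent, while a few escape genes are read from it in normal cells. Because a working Xist lay on the Cast X alone, Cast reads of an X-linked gene come from the inactive X. The measure used here is the number of reads per gene assigned to the Cast genome. Levels are Cast CPM, the counts scaled to the sum of Cast-assigned counts of a library. Reads of the 129 allele and reads assigned to neither genome were not used here, so no share of the active X is given and a change in the gene's whole output was not tested.

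The 9 genes are spread along the chromosome. On mm10 their start sites run from 7697131 (Gpkow) to 166170454 (Gemin8). The closest pair, Fundc1 and Klhl13, lies 5.79 Mb apart, and the distance to Xist goes from 2.99 Mb for Igbp1 to 95.8 Mb for Gpkow. They were labelled as housekeeping genes, which data from a single cell type cannot show.

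Promoters are shown because the silencing of an X-linked gene bears on its start. RefSeq windows (GRCm38.p6, 250 bases before to 50 after a start) matched 8 of the 9 genes. Klhl13 had 5 such windows, and only the 1 at its start in the count table is shown and counted below. The windows below are those of Gemin8, beside which another gene had high Cast counts, of Klhl13, with the fewest control counts among the genes with any, and of Psmd10, whose window also holds the start of Atg4a in the count table. They lie at chrX:166170204-166170503 (plus strand), chrX:23365033-23365332 (minus strand) and chrX:140956662-140956961 (minus strand), and are written 5′ to 3′ along the gene. Capitals mark GGGCGG, the core of the Sp1 box, and CCGGAAG, a core of sites for ETS factors, on either strand.

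Gemin8: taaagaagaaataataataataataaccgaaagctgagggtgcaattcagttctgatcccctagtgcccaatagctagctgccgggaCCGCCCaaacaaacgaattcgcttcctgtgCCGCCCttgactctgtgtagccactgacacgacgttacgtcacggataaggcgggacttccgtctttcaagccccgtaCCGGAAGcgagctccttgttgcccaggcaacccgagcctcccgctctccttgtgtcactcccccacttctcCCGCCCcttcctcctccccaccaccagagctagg
Klhl13: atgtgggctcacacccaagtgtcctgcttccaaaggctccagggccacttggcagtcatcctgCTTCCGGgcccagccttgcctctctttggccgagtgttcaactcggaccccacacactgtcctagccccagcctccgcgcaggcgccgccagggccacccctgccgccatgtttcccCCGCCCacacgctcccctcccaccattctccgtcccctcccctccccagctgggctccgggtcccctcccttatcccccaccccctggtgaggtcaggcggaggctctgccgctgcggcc
Psmd10: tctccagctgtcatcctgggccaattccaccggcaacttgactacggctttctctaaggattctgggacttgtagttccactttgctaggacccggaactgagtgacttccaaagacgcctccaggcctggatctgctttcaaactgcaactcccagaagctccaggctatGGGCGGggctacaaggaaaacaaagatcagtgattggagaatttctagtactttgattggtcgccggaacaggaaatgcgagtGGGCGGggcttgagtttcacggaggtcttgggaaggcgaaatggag

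No letter pattern searched for was present in all 8 windows. GGGCGG was in 4 of 8 (Gemin8, Klhl13, Psmd10 and Tmem47), against 59.3% of windows of 214 other X-linked genes with a Cast count and 35.7% of all 32851 windows. CCGGAAG was in 2 of 8 (11.2% and 8.86% in the same sets), CACGTG, the E-box, in 2 (11.7% and 7.15%) and AAGATGG, the YY1 core, in 1 (8.41% and 6.34%). TGCGCA, the NRF1 core, and TATAAA, the TATA box, were in 0 of 8 (13.1% and 7.76% for TGCGCA, 10.7% and 13.6% for TATAAA). All motifs were looked for on both strands, and no pair of them shares letters in the windows above. CpG dinucleotides numbered 10 in Igbp1 and Nkap and 29 in Tmem47, with a median of 13.5 for the 8 windows, 16 for the other X-linked genes and 7 for all windows.

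The libraries held 1742712 and 1913567 Cast-assigned counts in del/del cells and 1543945 and 2000659 in del/fl cells. Xist ranked 1 or 2 among all genes in every library, with 24985 and 29637 Cast counts in del/del and 18425 and 26267 in del/fl cells. Its level was 14337 and 15488 against 11934 and 13129 Cast CPM, so both del/del libraries were above both controls for Xist too. Smchd1 had 0 Cast counts in all 4 libraries, so its Cast counts do not check the genotype labels. Of the 7910 genes tested below, 4042 had at most 3 Cast counts over both A libraries or over both B libraries, in a mixed strain background. The cause of that difference between A and B was not tested, and it enters the sum that CPM is scaled to. Neural stem cell markers had Cast counts for 7 of 7 genes and summed to 17077 and 12256 Cast CPM in del/del and 17904 and 10559 in del/fl libraries. Astrocyte markers (4 of 5, S100b at 0) summed to 1087 and 96.2 in del/del and 525 and 64.5 in del/fl libraries. The 3 oligodendrocyte markers with Cast counts (Mbp, Sox10 and Cnp, with Mog and Mag at 0) summed to 269 and 262 in del/del and 214 and 213 in del/fl libraries. These sums did not overlap, but most of them was Cnp, with 459 and 467 Cast counts in del/del and 324 and 405 in del/fl libraries. Sox10 had 10 and 29 against 6 and 20, groups that overlapped, and Mbp had at most 5. Neuron markers (4 of 6, Syt1 and Stmn2 at 0) summed to 18.4 and 21.4 in del/del and 13.0 and 21.0 in del/fl libraries. Microglial markers (2 of 5, Aif1, Cx3cr1 and Tyrobp at 0) summed to 0 and 38.7 against 0 and 41.0. Of the 6 mesenchymal markers 1 had Cast counts, at most 1.57 Cast CPM in del/del and 0.4998 in del/fl libraries, with Col1a2, Col3a1, Pdgfrb, Dcn and Lum at 0. The astrocyte sum differed more between A and B than between genotypes, as Aqp4 and Aldh1l1 had at most 1 Cast count in a B library. Within A and within B the sum was higher in del/del cells. Gfap had 339 and 183 Cast counts in del/del and 90 and 128 in del/fl libraries. The part of either glial list in the values below was not tested. In bulk RNA, a few cells with a fully read inactive X and many cells with a weakly read one cannot be told apart.

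Summed over the 9 genes there were 469 and 484 Cast counts in del/del libraries (269 and 253 Cast CPM) and 154 and 183 in del/fl libraries (99.7 and 91.5 Cast CPM). For each of the 9 both del/del libraries were above both del/fl libraries. Among the 104 X-linked genes with at least 20 Cast counts over the 4 libraries, 38.5% did the same, 8 of the 9 included (Psmd10 had fewer counts). Nothing is read from the 9 of 9, as the contrast chose the genes. The other 95 genes without Xist had a median log2 ratio of del/del to del/fl levels of 0.12 (Cast CPM plus 1), and 31 of them (32.6%) had both del/del libraries above both controls. Cast counts of other X-linked genes summed to 7003 and 6098 Cast CPM in del/del and 5957 and 5075 in del/fl libraries. Of these sums Tsix made up a mean of 750 in del/del and 657 in del/fl libraries, Gpm6b 629 and 136, and Eda2r 307 and 118. Tsix is the antisense gene of Xist, and how strand was treated in counting is not stated. Xist reads among the counts of Tsix therefore cannot be told apart. Intervals below are exact 95% (Clopper-Pearson) intervals in Cast CPM. They and the floor of 3 counts cover counting error only.

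**Figure D1:**
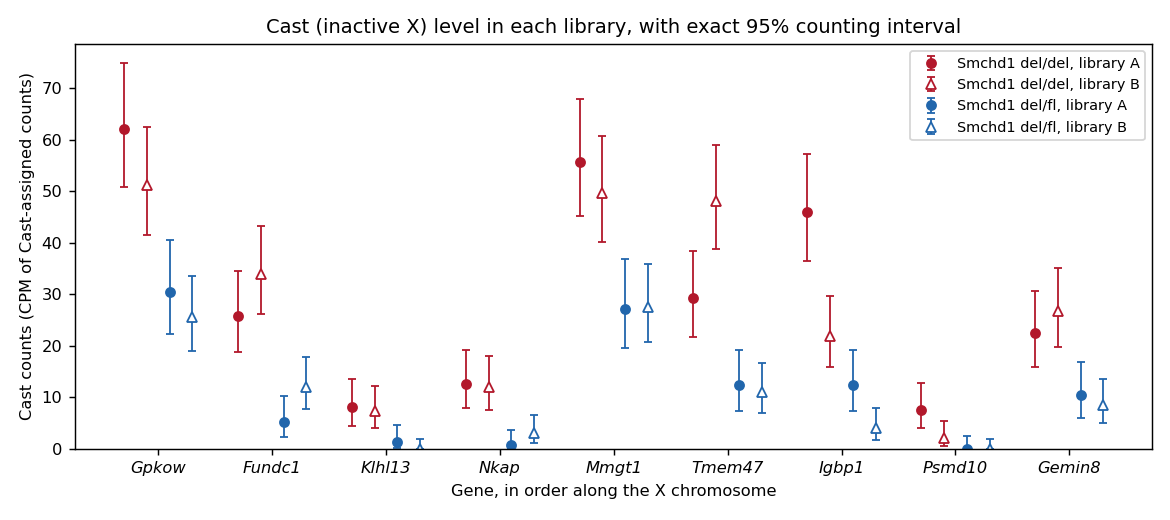
Cast level (Cast CPM, vertical axis) of the 9 genes in order along the X chromosome, with 1 point per library and exact 95% intervals as bars: del/del in red, del/fl in blue, library A as filled circles and B as open triangles. Both del/del points lie above both del/fl points for each gene, the contrast that chose them, and Psmd10 has 7.46 and 2.09 in del/del libraries against 0 in both del/fl libraries.

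Of the 9, 3 genes act on RNA or transcription. Gpkow encodes a G-patch and KOW domain protein of the spliceosome. It had 108 and 98 Cast counts in del/del and 47 and 51 in del/fl libraries, or 62.0 (50.8 to 74.8) and 51.2 (41.6 to 62.4) against 30.4 (22.4 to 40.5) and 25.5 (18.98 to 33.5) Cast CPM. The libraries of a genotype lay close together, at 56.6 ± 7.61 in del/del and 28.0 ± 3.50 in del/fl cells (SD, n = 2 each). Gemin8 encodes a subunit of the SMN complex, which loads Sm proteins onto spliceosomal RNAs. It had 39 and 51 Cast counts in del/del and 16 and 17 in del/fl libraries, or 22.4 and 26.7 against 10.4 and 8.50 Cast CPM. Both controls of Gemin8 were well above the floor, so its inactive allele was already read in del/fl cells. Nkap encodes a nuclear protein that represses Notch target genes together with Hdac3 and also binds splicing factors. It had 22 and 23 Cast counts in del/del and 1 and 6 in del/fl libraries, or 12.6 and 12.02 against 0.648 and 3.00 Cast CPM. The del/del libraries were nearly equal for Nkap, and the lower control was under the floor of 3 counts (1.94 Cast CPM).

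Another 4 genes serve the turnover of proteins or organelles and the phosphatases. Fundc1, a receptor in the outer mitochondrial membrane that brings mitochondria to autophagy, had 45 and 65 Cast counts in del/del and 8 and 24 in del/fl libraries. Its level was 25.8 (18.8 to 34.6) and 34.0 (26.2 to 43.3) Cast CPM in del/del and 5.18 (2.24 to 10.2) and 11.996 (7.69 to 17.8) in del/fl cells. Library B was the higher one in both genotypes for Fundc1. Igbp1 encodes alpha4, which binds and stabilises the catalytic subunits of PP2A-type phosphatases. It had 80 and 42 Cast counts in del/del and 19 and 8 in del/fl libraries, or 45.9 and 21.9 against 12.3 and 3.999 Cast CPM. Here library A was the higher one in both genotypes, and the lower del/del library still lay above the higher control. Psmd10, or gankyrin, is a chaperone that helps to assemble the base of the proteasome's regulatory particle. It had 13 and 4 Cast counts in del/del libraries and 0 and 0 in del/fl libraries. Its level was 7.46 (3.97 to 12.8) and 2.09 (0.570 to 5.35) Cast CPM in del/del cells, and the intervals of the 0 counts in del/fl libraries end at 2.39 and 1.84. The value of 2.09 rests on 4 counts and lies below the first of those limits. Klhl13 is a substrate adaptor of the cullin 3 ubiquitin ligase that acts on Aurora B in dividing human cells. It had 14 and 14 Cast counts in del/del and 2 and 0 in del/fl libraries, or 8.03 and 7.32 against 1.30 and 0 Cast CPM. Both control values of Klhl13 lay under the floor, so its inactive allele was not detectably read there at this depth.

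The remaining 2 genes encode membrane proteins. Tmem47, of the PMP22, EMP and claudin family, sits at cell junctions. It had 51 and 92 Cast counts in del/del and 19 and 22 in del/fl libraries. Its level was 29.3 (21.8 to 38.5) and 48.1 (38.8 to 59.0) Cast CPM in del/del and 12.3 (7.41 to 19.2) and 11.0 (6.89 to 16.6) in del/fl cells. The controls were alike and the del/del libraries unlike, with intervals that did not overlap each other. Mmgt1 is a subunit of the ER membrane protein complex, which inserts membrane proteins. It had 97 and 95 Cast counts in del/del and 42 and 55 in del/fl libraries, or 55.7 and 49.6 against 27.2 and 27.5 Cast CPM. Mmgt1 was among the most even of the 9 within a genotype, at 52.7 ± 4.25 in del/del and 27.3 ± 0.204 in del/fl cells (SD, n = 2 each).

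As ratios of counts pooled over the libraries of a genotype, with the counting interval, Mmgt1 (1.92-fold, 1.496 to 2.48) and Gpkow (2.04-fold, 1.59 to 2.62) were lowest and narrowest. These intervals treat pooled reads as the sample and leave out the spread between libraries. Whether they reach 1 is not read, as the contrast chose the genes. Gemin8 (2.64, 1.76 to 4.07), Fundc1 (3.33, 2.23 to 5.11), Tmem47 (3.38, 2.37 to 4.91) and Igbp1 (4.38, 2.87 to 6.92) lay in the middle. Their intervals overlap each other, and those of Gemin8, Fundc1 and Tmem47 also overlap those of Mmgt1 and Gpkow. The order of these genes was therefore not resolved. Nkap (6.23, 2.79 to 16.4) and Klhl13 (13.6, 3.42 to 118) had wide intervals, which overlap those in the middle, because their controls held 7 and 2 Cast counts. For Psmd10, with 0 control counts, the counting interval of the ratio has no upper end and begins at 4.0005. The genes with the largest ratios were thus those with the fewest control counts.

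**Figure D2:**
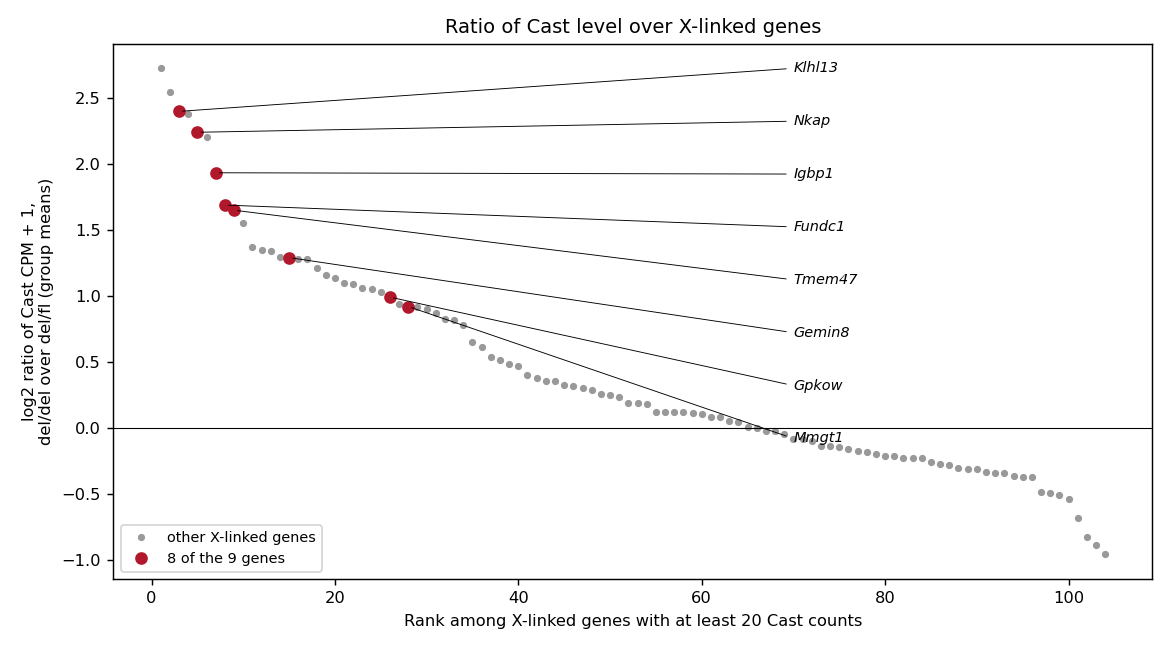
Log2 ratio of Cast CPM plus 1 (del/del over del/fl group means, vertical axis) of the 104 X-linked genes with at least 20 Cast counts against its rank (horizontal axis), with 8 of the 9 genes in red and the others in grey. The 8 lie at ranks 3 (Klhl13) to 28 (Mmgt1), with other genes between and above them.

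In the rank of log2 ratios over these 104 genes, Klhl13 stood at 3, Nkap at 5, Igbp1 at 7, Fundc1 at 8 and Tmem47 at 9. Gemin8 stood at 15, Gpkow at 26 and Mmgt1 at 28. Psmd10, with 17 Cast counts in all, fell short of the minimum of 20 and has no rank. Known escape genes are read from the inactive X in normal cells. The 8 measured, among them the RNA helicase Ddx3x and the histone demethylases Kdm5c and Kdm6a, ran from 10.5 to 381 Cast CPM in del/del and from 11.996 to 402 in del/fl libraries. Ddx3x had 224 and 212 Cast CPM in del/del and 240 and 201 in del/fl cells, groups that overlapped. Of the 8, 1 had both del/del libraries above both controls and 2 had both below. No order of levels between genes is read from these values, since reads can be assigned to Cast only where the genomes differ in sequence.

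The fit over the whole table gives the background of these values. edgeR's quasi-likelihood test called 0 of 7910 genes at an adjusted p under 0.05 (percent called 0), with 20 genes at an unadjusted p under 0.05, and DESeq2 called 0. With the number shared by the column names as a block, which no label ties to a sample, edgeR called 2.73% of the 7910 genes. Of the 88 X-linked genes tested, 11 were then called higher and 0 lower. Of the 9 genes, 8 passed the filter on low counts (Psmd10 did not), 0 were called without the block and 6 were called higher with it, from which nothing is read. In simulated data the fit without the block recovered 0 of 100 genes changed 4-fold, so its lack of calls says nothing on whether genes differed. The simulation kept the means of the A and of the B libraries, and so their difference, in both genotypes. Its spread between replicates was set and not estimated from these libraries. With no statement that libraries came from separate embryos, p-values measure only the spread between these cultures.

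Genes next to the 9 were taken by position, whatever their difference between genotypes. For each of the 9 the 2 nearest X-linked entries on either side with a Cast count in any library were taken, 36 in all. An entry with no Cast count was passed over, since a silent allele and an unexpressed gene cannot be told apart on Cast counts alone. Of the 36, 6 (16.7%) had both del/del libraries above both controls. This was so for 58 of 231 other X-linked genes with a Cast count (25.1%) and for 26.4% of all 276, the 9 included. Another 2, Praf2 and Dmd, had both below. Of the 36, 17 had at most 3 Cast counts over the 4 libraries, some (Tbl1x among them) had counts in del/del libraries only, and some lie many Mb away, so these counts do not give the extent of the difference along the chromosome. edgeR tested 9 neighbours and called 0, with 1 at an unadjusted p under 0.05 (Gpm6b), and DESeq2 called 0. With the block edgeR called 1, Gpm6b.

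The 6 lay beside 4 of the 9 genes. Gpm6b, a neural membrane proteolipid, starts 48.4 kb past the end of Gemin8 and had 1220 and 1067 Cast counts in del/del and 285 and 174 in del/fl libraries, or 700 and 558 against 185 and 87.0 Cast CPM. Its log2 fold change was 2.26 (SE 0.46, edgeR adjusted p = 1.00, unadjusted 0.0196), and with the block it was 2.31 (SE 0.16, edgeR adjusted p = 0.000201). Beyond it Ofd1, a protein of the base of the cilium, had 28 and 14 Cast counts in del/del and 10 and 3 in del/fl libraries (log2 fold change 1.59, SE 1.10, edgeR adjusted p = 1.00). Gemin8 thus had both neighbours on that side higher in both del/del libraries. On its other side Piga, 1737 kb away, had 2 and 2 Cast counts in del/del and 2 and 1 in del/fl libraries.

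Beside Gpkow, Ccdc22, a scaffold of endosomal sorting, had 7 and 8 Cast counts in del/del and 2 and 3 in del/fl libraries, and Wdr45, which acts in autophagy, had 3 and 1 against 0 and 0. Praf2, 18.2 kb past the end of Gpkow, had 22 and 20 in del/del and 23 and 28 in del/fl libraries, so it went the other way from Gpkow at a close distance. Beside Fundc1, Ndp, the ligand norrin, had 8 and 6 Cast counts in del/del and 2 and 1 in del/fl libraries. Kdm6a, an escape gene 590 kb on the other side of Fundc1, had 120 and 167 in del/del and 105 and 152 in del/fl libraries, or 68.9 and 87.3 against 68.0 and 76.0 Cast CPM. The groups overlapped for Kdm6a. Beside Tmem47, Tbl1x had 1 and 2 Cast counts in del/del and 0 and 0 in del/fl libraries, all at or under the floor.

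Psmd10 and Atg4a, a protease of autophagosome formation, start 179 bases apart and are read away from each other, within the Psmd10 window printed above. Atg4a had 7 and 1 Cast counts in del/del and 0 and 2 in del/fl libraries. The groups overlapped for Atg4a, unlike Psmd10, although library A of del/del cells was the highest for both. Igbp1 lies 110 kb from Kif4, a mitotic motor, which had 62 and 50 Cast counts in del/del and 45 and 55 in del/fl libraries. Kif4 was read from the Cast X in both genotypes, at 35.6 and 26.1 against 29.1 and 27.5 Cast CPM. Slc25a5, a mitochondrial ADP/ATP carrier and a distant neighbour of Klhl13, had 140 and 126 in del/del and 106 and 134 in del/fl libraries, groups that overlapped. Nkap, Mmgt1, Igbp1, Klhl13 and Psmd10 had no neighbour with both del/del libraries above both controls.

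**Figure D3:**
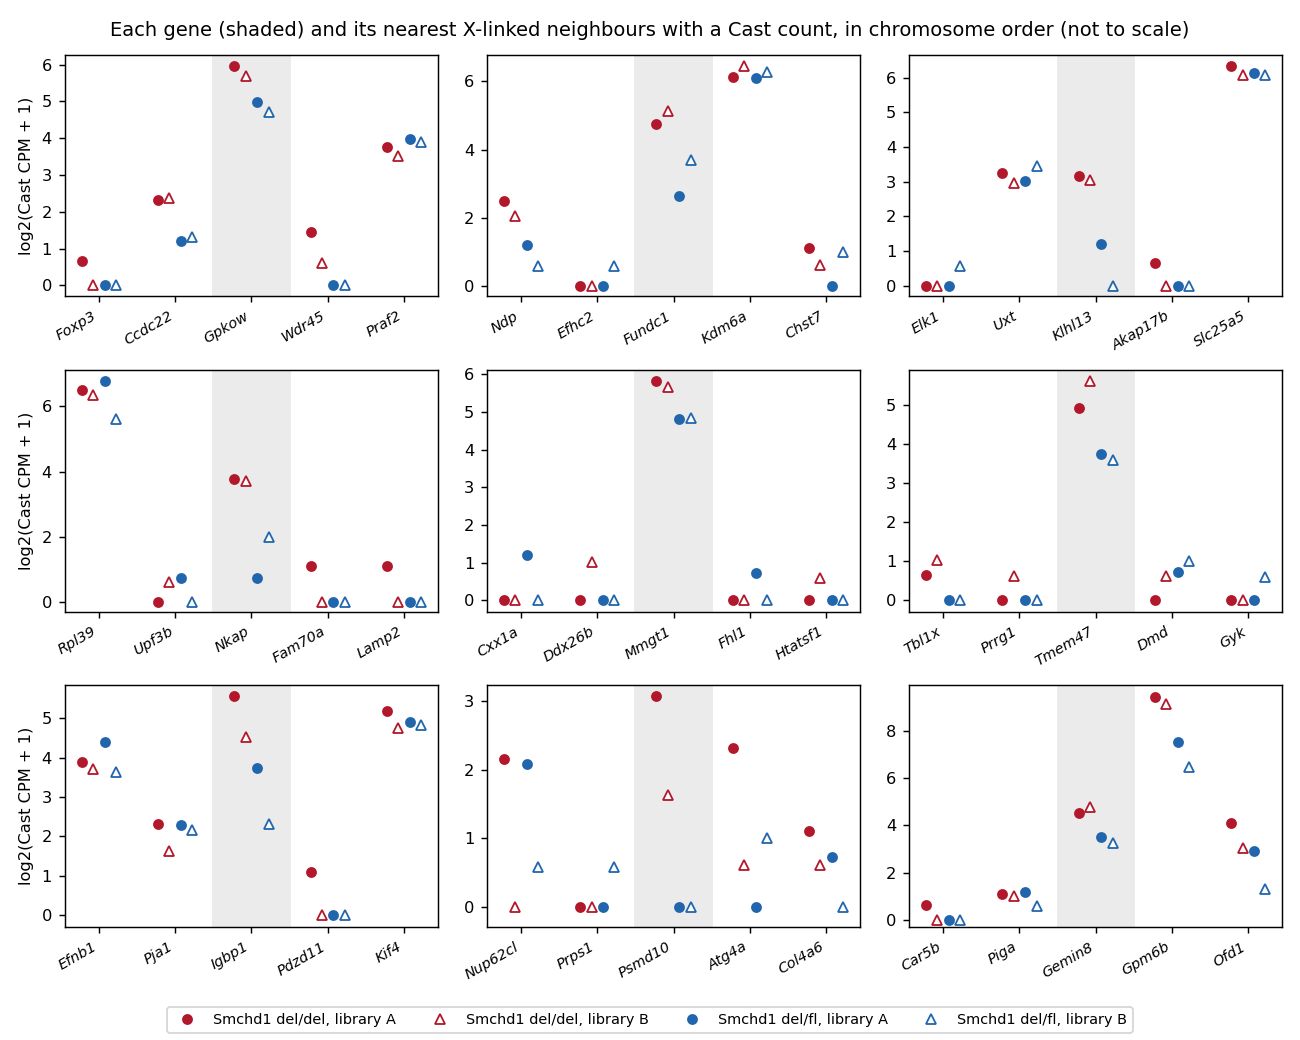
Log2 of Cast CPM plus 1 (vertical axis, scaled per panel) of each of the 9 genes (shaded) and its 2 nearest X-linked neighbours with a Cast count on each side, in chromosome order and not to scale, with del/del in red, del/fl in blue, library A as filled circles and B as open triangles. Gpm6b and Ofd1, to the right of Gemin8, have both del/del libraries above both controls, while Kdm6a, Slc25a5 and Kif4 have overlapping groups.

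The 5 X-linked genes whose Cast levels over the 4 libraries lay closest to the median profile of the 9, by Euclidean distance on log2 of Cast CPM plus 1 among 66 candidates, were Uba1, Vma21, C330007P06Rik, Alg13 and Ogt. Uba1, an enzyme that activates ubiquitin, had 31.0 and 22.5 Cast CPM in del/del and 18.8 and 14.495 in del/fl libraries, at a distance of 1.12. Ogt, which adds N-acetylglucosamine to proteins, had 22.4 and 24.0 against 21.4 and 17.0. In 4 of the 5 both del/del libraries lay above both controls, and in C330007P06Rik, at 21.2 and 12.5 against 12.95 and 12.996, the groups overlapped. Nothing is read from the 4 of 5, as the profile is that of genes chosen by this contrast. Among the 95 other X-linked genes with at least 20 Cast counts, 32.6% had both del/del libraries above both controls. The distance takes in the level, and so the number of reads that can be assigned in each gene.

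Relatives of the 9 elsewhere in the genome can take reads that belong to a close copy. Fundc2, an X-linked paralog of Fundc1, had 1 and 0 Cast counts in del/del and 0 and 0 in del/fl libraries, so it lay under the floor of 3 counts while Fundc1 did not. Klhl9, on chromosome 4, had 0 and 1 against 0 and 3, and Igbp1b, on chromosome 6, had 0 in all 4 libraries. Nkapl, on chromosome 13, had 7 and 0 in del/del and 3 and 0 in del/fl libraries. Mmgt2, on chromosome 11, had 140 and 67 in del/del and 66 and 69 in del/fl libraries, groups that overlapped in Cast CPM. An exchange of reads between Mmgt2 and Mmgt1 was not tested. Of the 9, 4 overlap another annotated entry (GENCODE M21): Nkap with Akap14 and Tmem47 with Gm26775 on the opposite strand, and Klhl13 with the pseudogene Gm14523 and Mmgt1 with Mir5116 on the same strand. Akap14 had 0 Cast counts. How strand was treated in counting is not stated in any label, so reads of these partners cannot be told apart from those of the 9.

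Genes that work with the 9 were taken from 9 lists of partners. Of their genes 96 had enough Cast counts to be tested. Of these, 48 had at most 3 Cast counts over both A or both B libraries. The fit without the block called 0 of the 96, and DESeq2 called 0. With the block edgeR called 3, all lower, against 2.73% of all genes. Psmc4, an ATPase of the proteasome base, had 315 and 330 Cast CPM in del/del and 500.02 and 444 in del/fl libraries (log2 fold change -0.51, SE 0.11, edgeR adjusted p = 0.0392 with the block and 1.00 without). Emp1, of the family of Tmem47, had 17 and 0 Cast counts in del/del and 72 and 0 in del/fl libraries, and the claudin Cldn12 had 746 and 0 against 1106 and 2. Both therefore rest on the A libraries, with 1 per genotype. The median log2 fold change of the 96 was -0.12 without the block, beside 0.02 for all 7910 genes. The list of Psmd10, the proteasome's regulatory base and its chaperones, had the lowest median, -0.40 over 10 tested genes. In it 1 of 10 had a positive fold change, against 4127 of all 7910 genes. However, 6 of the 10 had at most 3 Cast counts over both A or both B libraries, so they rest on 1 library per genotype. The other medians lay between -0.22 (9 genes of the PMP22 family and junctions, Tmem47) and -0.01 (10 phosphatase genes, Igbp1). Spliceosome partners (Gpkow) had a median of -0.20 over 10 genes, Notch repression and splicing partners (Nkap) -0.10 over 8 and the SMN complex (Gemin8) -0.07 over 12. Mitophagy genes (Fundc1) had -0.05 over 17, the ER membrane complex (Mmgt1) -0.03 over 8 and cullin 3 partners (Klhl13) -0.02 over 12.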

How the data were processed

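Cultured neural stem cells of female mice gave 4 RNA-seq libraries, 2 per Smchd1 genotype. The authors deposited raw, whole-number counts for every gene. The submitters' processing notes name mm10, bcl2fastq, TopHat2 2.0.12 and edgeR. The splitting of reads by genome is described in no header or label. Of the per-library columns, the 4 of the second genome were used, and 8 were not. Column names give the genotype but not the titled sample. A single measure was kept so that the columns used match the 2 samples of each genotype in number. The labels did not make the other measures unusable. Analyses planned on the 129 allele, the ratio of alleles, allelic shares and all reads were left out by this choice, and rules stated on shares were restated on Cast counts. This choice was made after all columns had been seen. The second genome was read as Cast because Xist, whose working allele is on the Cast X, was among its most counted genes. The series' design speaks of 3 lines per genotype; others were not analysed here.

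The 9 genes and all lists were chosen with earlier results of these data known. A marker gene is not reported here. The text names the 9, their 2 nearest neighbours a side with a Cast count, listed paralogs and escape genes, and the 5 most alike X-linked genes. Also named are cell type markers, Tsix, Eda2r and genes of partner lists called with or without the block (up to 3 each). Fits used edgeR 4.0.16 in R 4.3.3 (filterByExpr, TMM, library size as the sum of Cast counts, Benjamini-Hochberg threshold 0.05), tested on simulated data. Depth was 1543945 to 2000659 Cast counts a library. Intervals are from scipy 1.17.1. DESeq2 1.42.0, RLE scaling, no low-count filter, the column number as a replicate block and leaving out each library were alternatives.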

Additional observations from a re-analysis of the deposited data

How the results depend on the processing

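edgeR called 0 genes on Cast counts, also with RLE scaling, with no low-count filter and without any 1 library (0 to 0), and DESeq2 called 0. Both genotypes have columns of the same pair of numbers (A and B), but the labels tie these to no sample, so the block was kept as an alternative: across 7910 genes, deviations of same-numbered libraries correlated at r = 0.993. With the number as a replicate block edgeR called 216 genes, with no filter and the block 487, with RLE scaling and the block 292, and DESeq2 with the block 77. In simulated data edgeR recovered 78 of 100 genes changed 4-fold with the block and 0 without it. Both numbers depend on the simulation, which had the difference between A and B built in and a set spread. The cause of the difference between A and B was not tested.

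For the 9 genes the sign of the difference in Cast CPM cannot turn when 1 library is left out, because their groups do not overlap. The same contrast chose these genes. Without the del/del library A, Psmd10 had 2.09, against 4.77 with all libraries, and Igbp1 13.8, against 25.8. Without the del/del library B, Psmd10 had 7.46, and Tmem47 17.6, against 27.0. Mmgt1 had 18.4, against 25.3, when scaled to Cast counts of other X-linked genes. Neighbours with both del/del libraries above both controls numbered 10 of 34 (29.4%) with at least 20 Cast counts. The share was 32.6% of the 95 such X-linked genes without the 9 and Xist, and 38.5% of all 104. With 1 neighbour a side it was 3 of 18 (16.7%), against 26.4% of 276, the 9 included. The 5 most alike genes were the same on square roots. These alternatives, the blocks included, were chosen after seeing the data. Alternatives on the 129 allele, the ratio, shares and all reads were not run. Depth limits Psmd10, Klhl13 and Nkap, with 0 to 6 Cast counts in controls.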
